A study of Mus musculus with 12 samples.

Results

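The mature neutrophil markers examined here were 9 mouse genes, chosen by symbol: S100a8, S100a9, Csf3r, Clec4d, Clec4e, Trem1, Fpr1, Fpr2 and Retnlg. All 9 were found among the 52636 gene identifiers of the count table, and 4 of them (S100a8, S100a9, Csf3r and Clec4d) had enough reads for the test across all genes. RNA was counted in paw joint tissue of 12 mice, 1 library per animal. In 4 mice arthritis had been induced with K/BxN serum, whose autoantibodies inflame the joints, and an agonistic antibody to the inhibitory myeloid receptor SIRPa, clone 6F2, was given (6F2 mice). Another 4 mice received the same serum and anti-gp120, a control antibody (aGP120 arthritic mice), and 4 naive mice received anti-gp120 without serum. Serum-transferred joints were taken at day 7. The sources used here give no strain, age or sex, and the naive group shares the control antibody but not the serum.

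The markers stand for separate tasks of a granulocyte. S100A8 and S100A9 pair up as calprotectin, an abundant cytosolic protein of neutrophils, which monocytes and stressed keratinocytes also make. CSF3R is the receptor for granulocyte colony-stimulating factor, CLEC4D and CLEC4E are C-type lectin receptors that signal through the adaptor FCER1G and the kinase SYK, and TREM1 signals through the adaptor TYROBP. FPR1 and FPR2 are G protein-coupled receptors for formylated peptides of bacteria and mitochondria, and RETNLG is a secreted resistin-like protein of mouse neutrophils and marrow. Monocytes and macrophages can also carry the lectin receptors, TREM1 and FPR2, so that no marker here is exclusive to neutrophils. Transcripts of neutrophils are few, because these cells hold little RNA.

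On GRCm38 the markers are protein-coding and lie in part side by side. S100a8 (ENSMUSG00000056054, chromosome 3, 90668978 to 90670035, plus strand) and S100a9 (ENSMUSG00000056071, 90692632 to 90695721, minus strand) are 22596 bases apart. Clec4d (ENSMUSG00000030144, chromosome 6, 123262111 to 123275265, plus strand) and Clec4e (ENSMUSG00000030142, 123281789 to 123289870, minus strand) are 6523 bases apart. Fpr1 (ENSMUSG00000045551, chromosome 17, 17876471 to 17883940, minus strand) and Fpr2 (ENSMUSG00000052270, 17887824 to 17893952, plus strand) are 3883 bases apart, and the annotated span of Fpr3 overlaps Fpr2 on the same strand, so the reads of Fpr2 are uncertain. Trem1 (ENSMUSG00000042265) lies on chromosome 17 from 48232768 to 48246924, Csf3r (ENSMUSG00000028859) on chromosome 4 from 126024550 to 126044440 and Retnlg (ENSMUSG00000022651) on chromosome 16 from 48872621 to 48874496, all on the plus strand. Each neighbouring pair is on opposite strands.

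The promoters of the S100a8 and S100a9 pair and of the Clec4d and Clec4e pair are printed below. These pairs of neighbours were chosen by their mean levels in 6F2 against aGP120 arthritic mice. The means were higher for the first pair and lower for the second. This difference between the pairs was not tested, nor was any link to the promoters. The sequences come from RefSeq (GRCm38.p6) and stop at the first annotated exon. They read 5′ to 3′ on the strand of the gene, with motif matches in capitals.
S100a8, chr3:90668821-90668977, plus strand: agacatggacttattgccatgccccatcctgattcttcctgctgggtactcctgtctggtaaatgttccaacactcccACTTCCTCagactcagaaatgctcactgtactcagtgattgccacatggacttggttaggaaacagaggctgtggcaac
S100a9, chr3:90695722-90695971, minus strand: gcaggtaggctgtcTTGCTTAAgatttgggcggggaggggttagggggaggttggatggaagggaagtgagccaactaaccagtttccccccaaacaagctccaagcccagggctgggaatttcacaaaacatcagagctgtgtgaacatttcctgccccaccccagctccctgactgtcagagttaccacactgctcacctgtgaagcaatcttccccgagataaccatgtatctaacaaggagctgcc
Clec4d, chr6:123261857-123262106, plus strand: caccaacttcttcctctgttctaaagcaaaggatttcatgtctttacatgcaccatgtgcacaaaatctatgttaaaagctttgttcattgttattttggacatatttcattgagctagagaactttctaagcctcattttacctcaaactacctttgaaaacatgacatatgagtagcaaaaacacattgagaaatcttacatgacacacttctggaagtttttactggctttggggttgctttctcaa
Clec4e, chr6:123289872-123290121, minus strand: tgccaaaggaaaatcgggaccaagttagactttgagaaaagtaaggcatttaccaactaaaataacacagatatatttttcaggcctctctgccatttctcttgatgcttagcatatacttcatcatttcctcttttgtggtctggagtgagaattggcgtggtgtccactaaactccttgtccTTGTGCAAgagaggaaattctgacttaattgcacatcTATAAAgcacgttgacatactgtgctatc

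Matches to 5 short motifs were looked for on both strands of the 250 bases before each RefSeq start. The C/EBP letters TTGCNNAA, a motif of factors that direct granulocyte maturation, were found in 3 of 9 marker promoters (S100a9, Clec4e and Retnlg) and in 9.56% of all 32851 windows. The PU.1 letters GAGGAAGT were found in S100a8 on the opposite strand (ACTTCCTC as printed), and in 2.44% of all windows. TATAAA was found in 4 of 9 (S100a8, Clec4e, Fpr1 and Fpr2) and in 12.4% of all windows, and the match in S100a8 lies past the printed stretch. The AP-1 letters TGANTCA and the NF-kB letters GGANTTTCC, in 6.75% and 1.07% of all windows, were in none of these 9 windows. The Clec4d window held none of the 5 motifs. A match describes letters and not a bound site, and the absence of a match applies to these windows alone.

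Total counts ran from 13791454 to 17597920 in 6F2 libraries, from 6893969 to 13416033 in aGP120 arthritic libraries and from 14289363 to 16205593 in naive libraries. The lowest total was that of aGP120 arthritic mouse 2. That library and mouse 4 of its group also stood apart in genes of smell and taste receptors, which joint tissue is not known to use: these summed to 516 and 221 CPM there (counts scaled to library size with TMM factors). The same sum was 10.1 to 14.9 CPM in 6F2 mice, 11.9 and 29.1 CPM in aGP120 arthritic mice 1 and 3, and 11.2 to 16.2 CPM in naive mice. Epidermal genes varied from 44.2 to 20300 CPM in 6F2 mice, from 525 to 5480 CPM in aGP120 arthritic mice and from 41.2 to 14700 CPM in naive mice.

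Clec4d, Clec4e, Trem1 and Csf3r had their highest levels in aGP120 arthritic mice 2, 3 and 4. Clec4d and Csf3r rose in arthritis by the test across all genes, and Clec4d fell with 6F2. Clec4d had enough reads for that test only through the aGP120 arthritic group, where it was high (15, 52, 135 and 75 reads, against 4 to 16 elsewhere). Its calls in that test are therefore weak support. An edgeR fit without the filter on low counts called it in both comparisons (adjusted p = 2.48e-05 and 0.000303). Clec4d, which binds glycolipids together with CLEC4E, had 0.353, 0.515, 1.16 and 0.566 CPM in the 4 6F2 mice, 1.24, 6.83, 10.2 and 5.42 CPM in the aGP120 arthritic mice, and 0.426, 0.281, 0.492 and 0.383 CPM in the naive mice. All 4 aGP120 arthritic mice lay above every 6F2 and every naive mouse, and mouse 1 of that group lay just above 6F2 mouse 3. Means were 0.647 ± 0.351 CPM in 6F2 mice, 5.92 ± 3.71 CPM in aGP120 arthritic mice and 0.396 ± 0.0886 CPM in naive mice (SD, n = 4 each). In aGP120 arthritic against naive mice the change was 3.87 ± 0.58 (log2, SE; edgeR quasi-likelihood test with Benjamini-Hochberg adjustment, adjusted p = 0.00535). In 6F2 against aGP120 arthritic mice it was -3.19 ± 0.55 (edgeR adjusted p = 0.0193), and in 6F2 against naive mice 0.68 ± 0.59 (edgeR adjusted p = 1). In bulk tissue, fewer neutrophils, less marker RNA per cell and a change in other cells that carry the marker cannot be told apart.

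The Clec4d increase in arthritis was called without any 1 of the 12 libraries (edgeR adjusted p from 1.4e-05 to 0.0254), but not without both aGP120 arthritic mice 2 and 4 (3.8, edgeR adjusted p = 0.0887). The Clec4d decrease with 6F2 was called in 7 of 12 such fits. It was lost without aGP120 arthritic mouse 2 (edgeR adjusted p = 0.0513), mouse 3 (0.0668) or mouse 4 (0.0507) and without 6F2 mouse 1 (0.0867) or mouse 2 (0.0901), although the change stayed between -3.60 and -2.78. It was also lost with limma-voom (adjusted p = 0.0686) and with only these groups in the fit (edgeR adjusted p = 0.0946).

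Csf3r, which binds the main growth factor of neutrophils, had 1.47, 0.902, 2.96 and 0.51 CPM in 6F2 mice, 2.07, 16.3, 9.29 and 5.49 CPM in aGP120 arthritic mice, and 0.304, 1.40, 0.0703 and 0.537 CPM in naive mice. The aGP120 arthritic mice all lay above the naive mice, whereas 6F2 mouse 3 lay above aGP120 arthritic mouse 1. Csf3r rose in aGP120 arthritic against naive mice by 3.82 ± 0.83 (edgeR adjusted p = 0.0188). For 6F2 against aGP120 arthritic mice the change was -2.5 ± 0.76 and did not pass (edgeR adjusted p = 0.0796), while DESeq2 called it (adjusted p = 0.00827). Without aGP120 arthritic mouse 1, the mouse with the lowest level of its group, the edgeR test called it as well (-2.81, adjusted p = 0.018). The arthritis call of Csf3r was lost without naive mouse 1 (edgeR adjusted p = 0.0569), naive mouse 4 (0.0623) or aGP120 arthritic mouse 3 (0.0555), without the filter on low counts (0.0528) and with limma-voom (adjusted p = 0.0574).

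**Figure D1:**
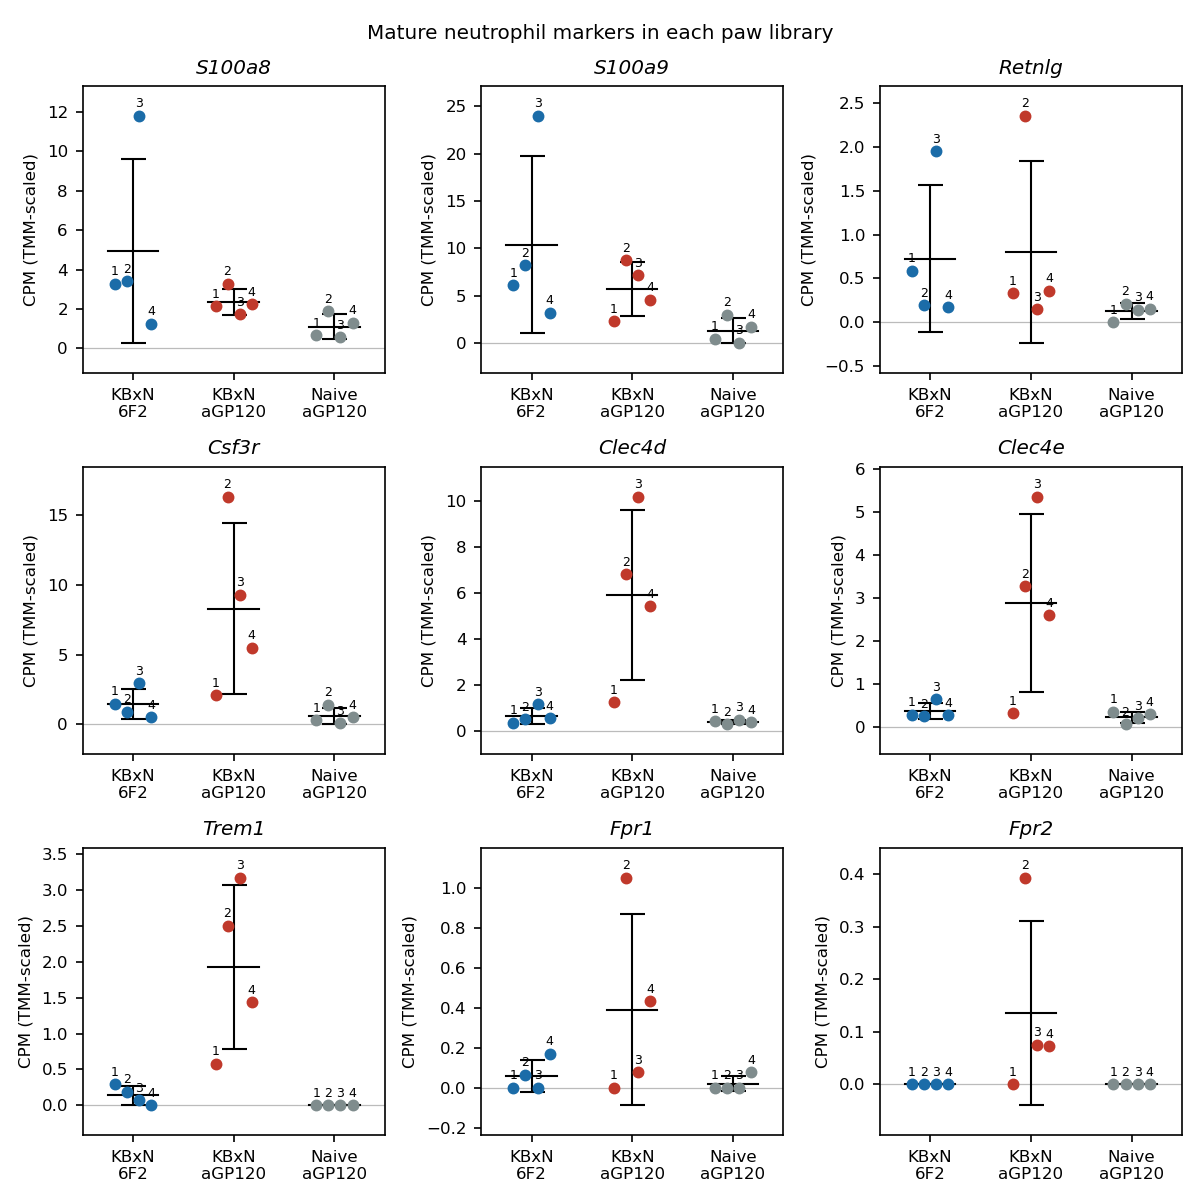
TMM-scaled CPM of each marker on a linear axis, 1 numbered point per mouse in the KBxN 6F2, KBxN aGP120 and naive aGP120 groups, with the mean and SD (n = 4) as bars. Csf3r, Clec4d, Clec4e and Trem1 are high in KBxN aGP120 mice 2, 3 and 4, whereas S100a8 and S100a9 are highest in KBxN 6F2 mouse 3, at 11.8 and 24 CPM.

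Clec4e, the receptor Mincle, which senses mycobacterial glycolipid and a nuclear protein of dead cells, fell below the count filter. Its counts were 5, 4, 9 and 5 reads in 6F2 mice, 4, 25, 71 and 36 reads in aGP120 arthritic mice, and 6, 1, 3 and 4 reads in naive mice. In mouse 1 of the aGP120 arthritic group Clec4e lay within the range of the other groups, and in mice 2, 3 and 4 it was above all of them. On the log2(CPM + 0.5) scale the difference was 1.91 for aGP120 arthritic minus naive mice and -1.68 for 6F2 minus aGP120 arthritic mice, and neither passed (exact two-sided permutation p = 0.0571 each). The smallest p this test can give with 4 against 4 mice is 0.0286, and the p values of the 15 such tests run are unadjusted. Summed counts gave ratios of 12 (136 against 14 reads, 95% counting interval 6.93 to 22.6) and 0.124 (23 against 136 reads, 0.0758 to 0.193). These intervals cover counting error only. In the edgeR fit of all genes without the filter, Clec4e passed in both comparisons (3.48, adjusted p = 0.000836, and -2.89, adjusted p = 0.00715).

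Trem1, which amplifies the response to other innate receptors, had no read in any naive mouse. It had 5, 3, 1 and 0 reads in 6F2 mice and 7, 19, 42 and 20 reads in aGP120 arthritic mice, so that these groups did not overlap. In CPM this was 0.294, 0.193, 0.0722 and 0 in 6F2 mice, against 0.579, 2.5, 3.17 and 1.44 in aGP120 arthritic mice. Against a floor of 3 counts per naive library, the mean of the aGP120 arthritic mice was at least 9.22-fold higher. The difference was 2.13 for aGP120 arthritic minus naive mice and -1.80 for 6F2 minus aGP120 arthritic mice on the log2(CPM + 0.5) scale (exact two-sided permutation p = 0.0286 each, the smallest possible). These sizes depend on the pseudocount: with 0.1 CPM they were 4.11 and -3.03, and with 2 CPM they were 0.92 and -0.83, at the same p. The unfiltered edgeR fit called Trem1 in both (adjusted p = 9.88e-05 and 0.0116). Between 6F2 and naive mice, with 9 reads against 0, the difference of 0.33 did not pass (exact two-sided permutation p = 0.143), and with both group means under the floor no ratio is given. Trem1 and Clec4e cleared the filter in 9 of the 12 fits that left out 1 library, and not without aGP120 arthritic mouse 2, 3 or 4. Since they passed it only through the group in which they were high, their calls in those fits are no support.

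Read against all genes, 2 of the 4 markers that passed the filter were called higher in aGP120 arthritic against naive mice (Csf3r and Clec4d), where edgeR called 5.87% of the 16674 genes tested higher. The groups did not overlap for the same 2 markers, as for 6.02% of all genes tested in that direction. In 6F2 against aGP120 arthritic mice 1 of 4 was called lower (Clec4d), against 1.7% of all genes, and that marker alone of the 4 had groups that did not overlap, against 4.82% of all genes. The other markers were below the filter, and Clec4d cleared it through the aGP120 arthritic group. These shares therefore do not show that markers were called more often than other genes. Over all genes the calls were 979 higher and 742 lower in arthritis and 265 higher and 283 lower with 6F2. With library totals in place of TMM they were 1283 and 540 in arthritis and 337 and 172 with 6F2. With TMM computed without epidermal, muscle and erythroid genes the calls with 6F2 were 346 and 233. No scaling reversed a marker. With library totals the median of all genes in arthritis shifted by 0.13, against changes above 3 in Csf3r and Clec4d.

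The calprotectin genes S100a8 and S100a9 had no lower mean in 6F2 mice than in aGP120 arthritic mice, and their highest levels of all were in 6F2 mouse 3. No change in either passed the test. S100a9 had 6.11, 8.24, 24.0 and 3.23 CPM in 6F2 mice, 2.32, 8.80, 7.18 and 4.62 CPM in aGP120 arthritic mice, and 0.487, 3.02, 0.0703 and 1.76 CPM in naive mice. The 6F2 and aGP120 arthritic mice overlapped, with 6F2 mouse 3 far above all others, and every 6F2 mouse lay above every naive mouse. S100a8 had 3.29, 3.41, 11.8 and 1.25 CPM in 6F2 mice, 2.15, 3.28, 1.74 and 2.24 CPM in aGP120 arthritic mice, and 0.67, 1.90, 0.562 and 1.30 CPM in naive mice. For S100a8 all 3 groups overlapped, since 6F2 mouse 4 lay below naive mice 2 and 4.

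Between 6F2 and aGP120 arthritic mice the change was 0.87 ± 0.81 for S100a9 (edgeR adjusted p = 0.547) and 1.07 ± 0.58 for S100a8 (edgeR adjusted p = 0.269). Without 6F2 mouse 3 these values were 0.05 (edgeR adjusted p = 0.98) and 0.19 (edgeR adjusted p = 0.859). In aGP120 arthritic against naive mice S100a9 stood at 2.09 ± 0.88 (edgeR adjusted p = 0.148) and S100a8 at 1.07 ± 0.60 (edgeR adjusted p = 0.263). In 6F2 against naive mice S100a9 stood at 2.96 ± 0.88 (unadjusted p = 0.00673, edgeR adjusted p = 1) and S100a8 at 2.14 ± 0.60 (unadjusted p = 0.0033, edgeR adjusted p = 1). In that comparison edgeR called 0 markers and 0% of all genes higher, while 675 genes had an unadjusted p under 0.05, DESeq2 called 20 genes and limma-voom 0. S100a9 was the only filtered marker whose 6F2 and naive mice did not overlap, against 3.04% of all genes that lay higher without overlap.

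**Figure D2:**
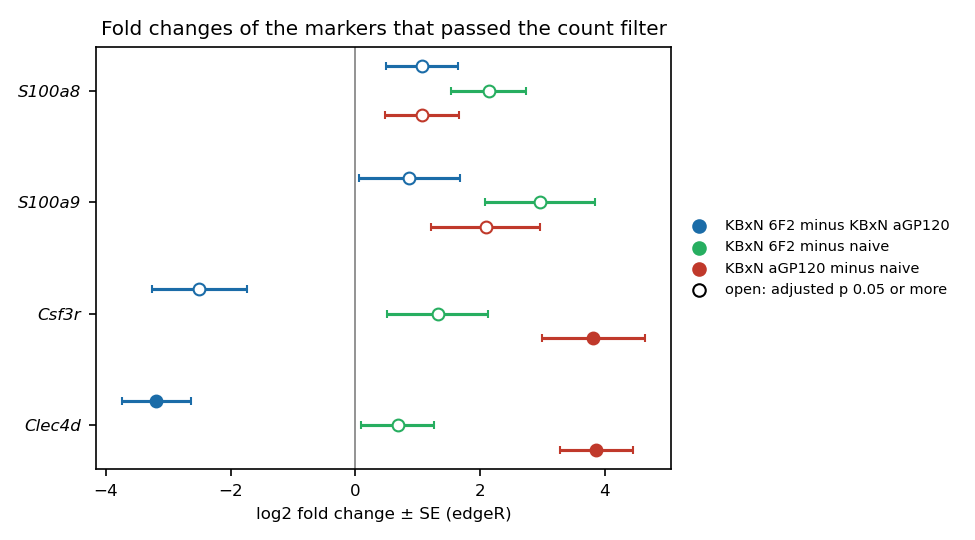
Log2 fold changes from edgeR with their SE for the 4 markers that passed the count filter, in each of the 3 comparisons (n = 4 mice per group), filled where the adjusted p was under 0.05. Clec4d and Csf3r lie right of 0 in KBxN aGP120 minus naive and left of 0 in KBxN 6F2 minus KBxN aGP120, and S100a8 and S100a9 lie right of 0 in all 3.

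Retnlg, the resistin-like marker, was near the limit of detection. It had 10, 3, 27 and 3 reads in 6F2 mice, 4, 18, 2 and 5 reads in aGP120 arthritic mice, and 0, 3, 2 and 2 reads in naive mice. A lone high mouse carried each arthritic group, 6F2 mouse 3 at 1.95 CPM and aGP120 arthritic mouse 2 at 2.36 CPM. The difference between 6F2 and aGP120 arthritic mice was -0.03 (exact two-sided permutation p = 1), and it was 0.44 without aGP120 arthritic mouse 2 and -0.43 without 6F2 mouse 3. Set against naive mice, the difference was 0.76 for 6F2 mice and 0.79 for aGP120 arthritic mice (exact two-sided permutation p = 0.0857 each).

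The formyl peptide receptors were barely detected. Fpr1 had 0, 1, 0 and 3 reads in 6F2 mice, 0, 8, 1 and 6 reads in aGP120 arthritic mice, and 0, 0, 0 and 1 in naive mice. The ratio of summed counts was 0.195 for 6F2 over aGP120 arthritic mice (4 against 15 reads, counting interval 0.0471 to 0.611) and 18.6 for aGP120 arthritic over naive mice (15 against 1 reads, 2.86 to 782). Neither passed over mice (exact two-sided permutation p = 0.257 each). Fpr2 had 3, 1 and 1 reads in aGP120 arthritic mice 2, 3 and 4 and 0 in the 9 remaining libraries, at or under the floor throughout (exact two-sided permutation p = 0.143 for 6F2 against aGP120 arthritic and for aGP120 arthritic against naive mice).

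The reads of Fpr1 came mainly from aGP120 arthritic mice 2 and 4, the libraries with high counts on smell and taste receptors. Per kilobase of exon, Fpr1 stood at 0.794 and 0.327 CPM there, and the 1746 receptor genes together at 0.093 and 0.0399 CPM. Fpr2 stood at 0.304 and 0.0557 CPM per kilobase in the same mice. Csf3r stood at 4.51 and 1.52 CPM per kilobase and Clec4d at 4.27 and 3.39 there. The part of these background reads in the values of Fpr1, Fpr2 or any other marker was not tested. Mouse 3 of the group, with the receptor genes at 0.00524 CPM per kilobase, held the highest Clec4d, Clec4e and Trem1.

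Per kilobase of exon, S100a9 led in each group, with 19.9 ± 17.9 CPM in 6F2 mice, 11 ± 5.46 in aGP120 arthritic mice and 2.56 ± 2.56 in naive mice (SD, n = 4 each). S100a8 came second in 6F2 mice (7.10 ± 6.72) and naive mice (1.6 ± 0.892). In aGP120 arthritic mice Clec4d (3.70 ± 2.32), S100a8 (3.39 ± 0.948) and Csf3r (2.3 ± 1.69) differed from each other by less than the larger of their SDs. In 6F2 mice Csf3r and Clec4d had the same mean of 0.405, with SDs of 0.298 and 0.219, below Retnlg at 1.22 ± 1.41. Clec4e, Trem1 and Fpr1 lay between 0.0442 and 0.0747 on average in 6F2 mice and between 0.294 and 0.642 in aGP120 arthritic mice.

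Ratios of marker reads within a library do not depend on its depth. They were chosen after the values were seen and are given without a test. The ratio of S100a9 to Clec4d reads was 17.3, 16.0, 20.8 and 5.70 in 6F2 mice, 1.87, 1.29, 0.704 and 0.853 in aGP120 arthritic mice and 1.14, 10.8, 0.143 and 4.60 in naive mice. The ratio of S100a9 to Csf3r reads was 4.16, 9.14, 8.12 and 6.33 in 6F2 mice, 1.12, 0.540, 0.772 and 0.842 in aGP120 arthritic mice and 1.6, 2.15, 1.00 and 3.29 in naive mice. For both ratios every 6F2 mouse lay above every aGP120 arthritic mouse, mouse 1 of that group included.

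Ratios between neighbouring genes overlapped between the arthritic groups. The ratio of S100a9 to S100a8 reads was 1.86, 2.42, 2.04 and 2.59 in 6F2 mice, 1.08, 2.68, 4.13 and 2.06 in aGP120 arthritic mice and 0.727, 1.59, 0.125 and 1.35 in naive mice. That of Clec4e to Clec4d was 0.833, 0.5, 0.562 and 0.5 in 6F2 mice, 0.267, 0.481, 0.526 and 0.480 in aGP120 arthritic mice and 0.857, 0.250, 0.429 and 0.8 in naive mice. Across the 12 libraries, Pearson's r of log2 CPM was 0.902 between S100a8 and S100a9 and 0.849 between Csf3r and Clec4d, against 0.408 between S100a9 and Clec4d and 0.230 between S100a8 and Clec4d. These are descriptions over libraries that share their depth and their groups.

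**Figure D3:**
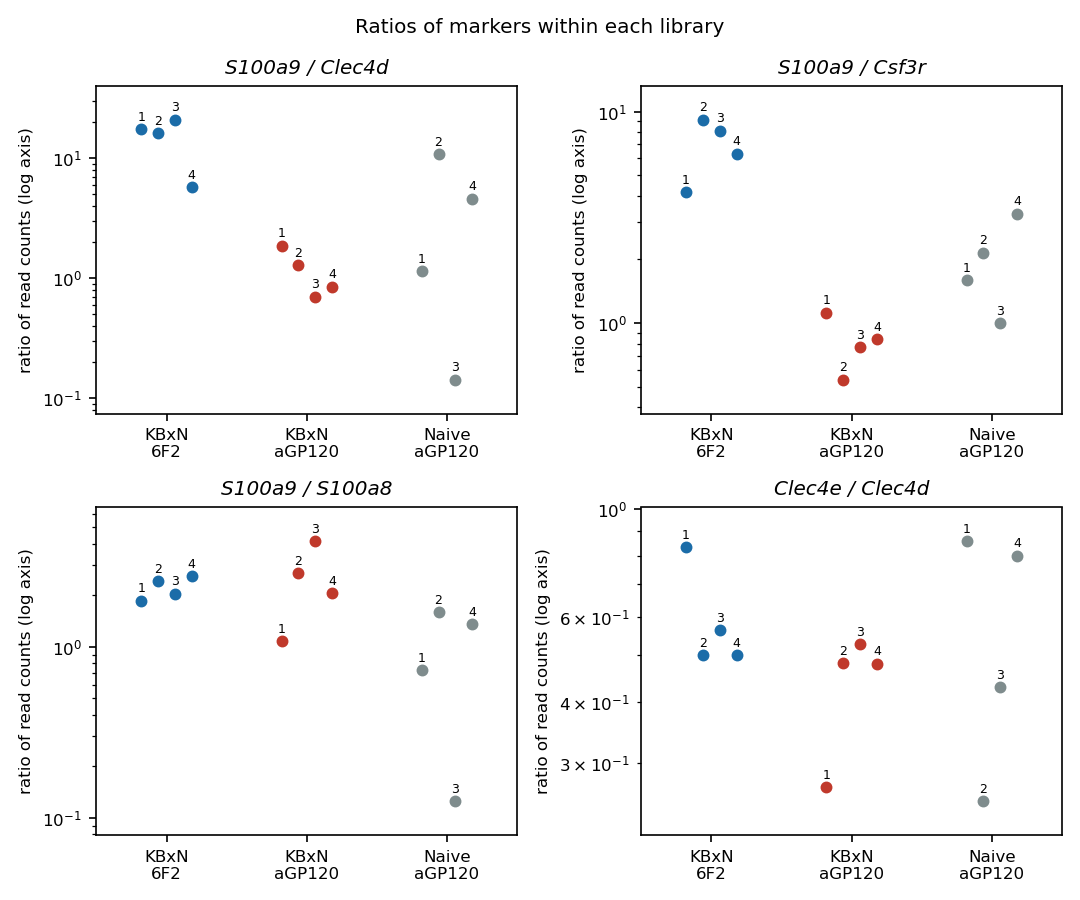
Ratio of the read counts of marker pairs in each library on a log axis, 1 numbered point per mouse in the KBxN 6F2, KBxN aGP120 and naive aGP120 groups. S100a9 over Clec4d and S100a9 over Csf3r are higher in each KBxN 6F2 mouse than in each KBxN aGP120 mouse, while S100a9 over S100a8 and Clec4e over Clec4d overlap between these groups.

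Among the genes whose log2 CPM over the 12 libraries was most like the mean of the 4 filtered markers were Lcn2 (r = 0.942), Zfp831 (0.927), Sned1 (0.924), Gbp3 (0.922), Zbtb12 (0.917) and Cd300c2 (0.909). Taken alone, Clec4d was most like the matrix protease Mmp3 (0.985), its inhibitor Timp1 (0.979) and Angptl4 (0.978). Csf3r was most like Plac8 (0.958), Nfkbid (0.942) and Ccnd3 (0.939), and S100a9 was most like Ddx60 (0.927). The profiles of single markers were added after the values were seen.

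Among the 13 adaptors and signalling genes that serve these receptors, all tested, 5 rose in aGP120 arthritic against naive mice and 0 fell, with a median of 0.64 beside 0.03 for all genes. Of all genes tested, 5.87% were called higher in that comparison. Fcer1g, the adaptor of CLEC4D and CLEC4E, averaged 19.9 ± 8.64 CPM in aGP120 arthritic mice and 7.38 ± 1.14 CPM in naive mice (1.43 ± 0.34, edgeR adjusted p = 0.0224). Tyrobp, the adaptor of TREM1, rose by 1.42 ± 0.33 (edgeR adjusted p = 0.0205), the kinase Syk by 1.09 ± 0.27 (0.0257) and Plcb2, a phospholipase downstream of G proteins, by 1.91 ± 0.44 (0.0203). Socs3, the inhibitor that STAT3 induces below CSF3R and other cytokine receptors, rose by 2.27 ± 0.36 (0.0079). Card9, Bcl10, Malt1, Plcg2, Gnai2, Jak1, Jak2 and Stat3 did not pass, with values from -0.07 to 1.09.

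With 6F2 against aGP120 in arthritic mice 1 of the 13 fell, Socs3, and the median was -0.46 beside -0.03 for all genes. Of all genes tested, 1.7% were called lower in that comparison. Socs3 had 25.8, 41.7, 31.3 and 32.3 CPM in 6F2 mice, 34.7, 121, 142 and 103 CPM in aGP120 arthritic mice and 22.8, 15.2, 24.2 and 20.7 CPM in naive mice. Mouse 1 of the aGP120 arthritic group lay among the 6F2 mice. The change with 6F2 was -1.61 ± 0.35 (edgeR adjusted p = 0.0376). Fcer1g stood at -0.84 ± 0.33 (edgeR adjusted p = 0.142), Tyrobp at -0.74 ± 0.32 (0.181) and Syk at -0.87 ± 0.26 (0.0783). The Socs3 call with 6F2 was lost when any 1 library other than aGP120 arthritic mouse 1 was left out, and without that mouse 7 of the 13 were called lower. In arthritis the number called was 10 without aGP120 arthritic mouse 1, 2 without mouse 4, and 1 without mouse 2 or 3 of that group or without naive mouse 1, 2 or 4. It was 0 without aGP120 arthritic mice 2 and 4 together, as it was for each other list whose calls are described below. Over all genes, fits without 1 library called 412 to 4694 genes in arthritis and 0 to 3976 with 6F2. With all libraries these numbers were 1721 and 548. List counts without 1 library, here and below, are to be read beside these ranges.

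Of the 8 ligands and co-receptors 6 were tested, 0 passed in any comparison by edgeR, and their medians were 0.06 in 6F2 against aGP120 arthritic mice and -0.05 in aGP120 arthritic against naive mice. Csf3, which encodes the ligand of CSF3R, had 0 reads in all 6F2 and all naive mice and 0, 9, 5 and 9 reads in the aGP120 arthritic mice. Its reads were thus in the same mice, 2, 3 and 4, that held most Csf3r, and it was too low for the test. Anxa1, a ligand of FPR2, averaged 132 ± 36.6 CPM in 6F2 mice, 126 ± 15.9 CPM in aGP120 arthritic mice and 142 ± 32.9 CPM in naive mice. Tlr4 and Bsg, receptors of calprotectin, did not pass either, nor did Pglyrp1, a ligand of TREM1, Sap130, a ligand of CLEC4E, or Ager.

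Relatives of the markers from the same gene families changed in both directions. Of 15 tested (24 listed), 2 rose (Clec4n and Trem2) and 2 fell (S100a1 and S100a6) in aGP120 arthritic against naive mice, with a median of 0.14. Over all 16674 genes tested, 979 were called higher and 742 lower there, and 265 higher and 283 lower with 6F2. Clec4n, the lectin receptor Dectin-2, rose by 2.37 ± 0.56 (edgeR adjusted p = 0.0226), and Trem2, a macrophage receptor, by 1.27 ± 0.27 (0.0152). S100a6 fell by 0.57 on the log2 scale in arthritis (edgeR adjusted p = 0.0318) and was the one relative called with 6F2, at 0.72 ± 0.15 (0.0314). It averaged 206 ± 42.3 CPM in 6F2 mice, 125 ± 9.22 CPM in aGP120 arthritic mice and 186 ± 20.2 CPM in naive mice. Clec4n stood at -1.82 ± 0.54 with 6F2 (edgeR adjusted p = 0.0716). Without aGP120 arthritic mouse 1, 6 relatives rose and 2 fell in arthritis, and without mouse 2 or 3 of that group 1 rose and 0 fell, and without mouse 4 2 rose and 0 fell. Without naive mouse 2 or 3 these counts were also 1 and 0, without naive mouse 1 they were 1 and 1, and without naive mouse 4 they were 2 and 1. With 6F2, 2 were called higher and 4 lower without aGP120 arthritic mouse 1. Over all genes, fits without 1 library called 412 to 4694 genes in arthritis and 0 to 3976 with 6F2. The S100a6 call with 6F2 was lost without aGP120 arthritic mouse 2, 3 or 4 and without 6F2 mouse 1 or 2. The 5 other formyl peptide receptor relatives, from Fpr3 to Fpr-rs7, had at most 3 reads in a group.

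Of 16 other mature neutrophil genes tested (22 listed), 6 rose in aGP120 arthritic against naive mice, among them Il1b, Acod1, Cxcr2, Cxcl2 and Lrg1, and 0 fell, with a median of 2.19. Over all genes tested, edgeR called 5.87% higher in that comparison. Acod1 and Cxcl2, with at most 6 reads in any other mouse, cleared the count filter only through the aGP120 arthritic group. Il1b and Cxcr2 cleared it mainly through that group. The number that rose and the median thus depend in part on the filter. The chemokine receptor Cxcr2 had 0.411, 0.0644, 0.505 and 0.736 CPM in 6F2 mice, 0.414, 5.52, 2.57 and 1.81 CPM in aGP120 arthritic mice and 0.0609, 0.14, 0.141 and 0.0766 CPM in naive mice. In 6F2 against aGP120 arthritic mice 1 of 16 was lower, the cytokine Il1b (-4.49 ± 0.93, edgeR adjusted p = 0.0338), and the median was -1.28. Of all genes tested, 1.7% were called lower there, and the same limit of the filter applies to Il1b and to this median. Cxcr2 stood at -2.53 ± 0.71 (edgeR adjusted p = 0.063). The defining marker Ly6g had 0 reads in 6F2 mice, 5 in aGP120 arthritic mice and 2 in naive mice, and Cd177 had 61 reads in 6F2 mice, 24 in aGP120 arthritic mice and 13 in naive mice. Il1b, Cxcl2 and Acod1 are also made by macrophages. Without aGP120 arthritic mouse 1 the list had 11 genes called higher in arthritis and 7 called lower with 6F2. Over all genes, fits without 1 library called 412 to 4694 genes in arthritis and 0 to 3976 with 6F2. The number of the list higher in arthritis was 3 without aGP120 arthritic mouse 3 or naive mouse 2. The Il1b call with 6F2 was lost without naive mouse 1, 2 or 3, without 6F2 mouse 1, 2 or 3 and without aGP120 arthritic mouse 2, 3 or 4.

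Granule and precursor genes, which neutrophils transcribe in the marrow before they mature, went in both directions between 6F2 and aGP120 arthritic mice. Of the 6 tested (12 listed), 4 had positive and 2 negative values, and 0 passed by edgeR. Mpo, which encodes myeloperoxidase, had 5.46, 6.12, 19.4 and 1.92 CPM in 6F2 mice, 1.41, 0.919, 0.0755 and 0.144 CPM in aGP120 arthritic mice and 0.122, 1.19, 0 and 0.307 CPM in naive mice. Ngp, a granule protein, had 6.88, 6.25, 20.8 and 2.26 CPM in 6F2 mice, 1.32, 0.657, 0.151 and 1.08 CPM in aGP120 arthritic mice and 0.791, 1.97, 0.0703 and 1.15 CPM in naive mice. Both were above all other mice in all 4 6F2 mice. Of all genes tested, 3.04% lay higher without overlap in 6F2 against naive mice. The share higher without overlap against aGP120 arthritic mice was not computed. Mpo and Ngp were highest in mouse 3, as S100a8 and S100a9 were. The values were 3.47 ± 0.86 for Ngp (edgeR adjusted p = 0.0509), 3.73 ± 1.06 for Mpo (0.0703), 3.12 ± 0.94 for Camp (0.0725) and 2.65 ± 1.04 for Ltf (0.153). Lcn2, at -1.20 ± 0.56 (edgeR adjusted p = 0.207), and Chil3, at -0.25 ± 0.75 (0.872), lay on the other side of 0. Lcn2, a granule protein that macrophages and epithelia also make, had 4.29, 2.83, 6.79 and 1.59 CPM in 6F2 mice, 1.82, 11.8, 15.6 and 6.35 CPM in aGP120 arthritic mice and 0.281 to 0.632 CPM in naive mice. Mpo and Camp cleared the count filter through the 6F2 group, in which they were high. The median of the 6 depends in part on that filter and was 2.88 (2.08 without 6F2 mouse 3). Without aGP120 arthritic mouse 1, 3 of them were called higher and 1 lower, and without naive mouse 3 or 6F2 mouse 4 there was 1 called higher. Over all genes, fits without 1 library called 0 to 3976 genes with 6F2. In arthritis Chil3 (4.65 ± 1.08, edgeR adjusted p = 0.0203) and Lcn2 (4.07 ± 0.66, edgeR adjusted p = 0.00753) rose, where 5.87% of all genes tested were called higher, and the median of the list was 0.46. Without naive mouse 1, 2 or 4 or aGP120 arthritic mouse 3, 1 gene was called in arthritis, and the median ran from 0.18 without naive mouse 3 to 1.80 without naive mouse 2.

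**Figure D4:**
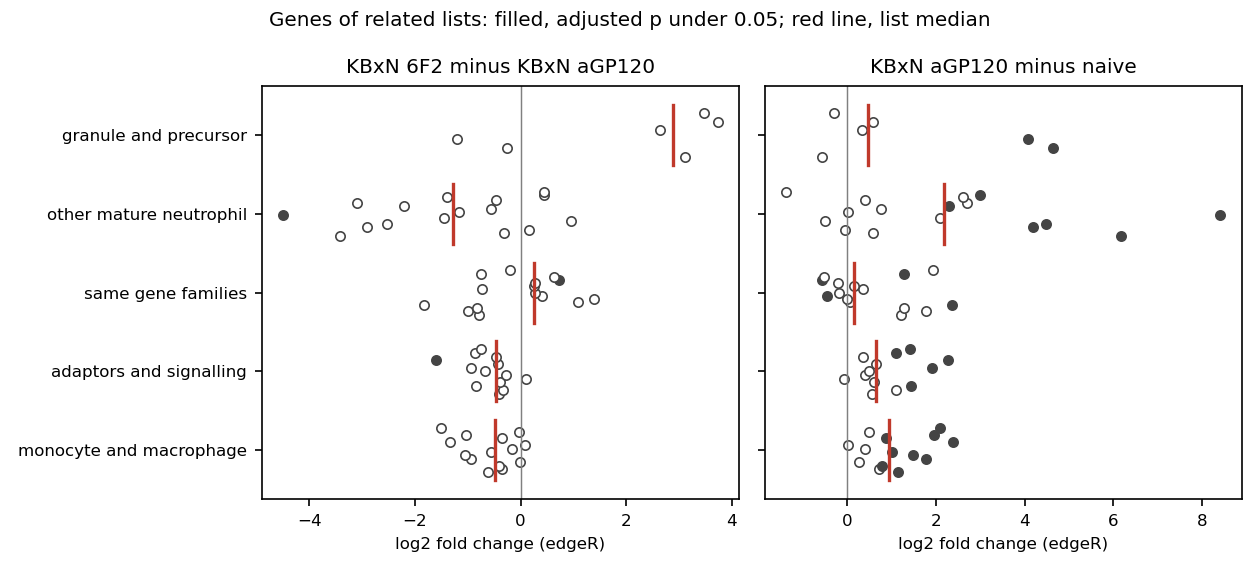
Log2 fold changes from edgeR of the genes of 5 lists, 1 point per tested gene, filled where the adjusted p was under 0.05, with the list median as a red line. In KBxN 6F2 minus KBxN aGP120 the granule and precursor median is 2.88 and that of other mature neutrophil genes -1.28, and in KBxN aGP120 minus naive they are 0.46 and 2.19. The medians cover only genes that cleared the count filter, some of them through the group in which they were high.

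Sums over the marker lists of other cells were set beside these results. The 12 granule and precursor genes summed to 26.6, 26.3, 81.6 and 9.91 CPM in 6F2 mice, 8.10, 19.8, 19.9 and 9.82 CPM in aGP120 arthritic mice and 2.43, 7.30, 0.562 and 4.29 CPM in naive mice. Erythroid genes, 8 in all, summed to 26.7, 16.2, 43.2 and 16.0 CPM in 6F2 mice, against 6.64 to 12.2 CPM in aGP120 arthritic mice and 12.4 to 14.1 CPM in naive mice, and 9 lymphocyte genes summed to 12.2 CPM in 6F2 mouse 3 and to at most 6.04 CPM elsewhere. Hbb-bs, a beta-globin gene, was the erythroid gene called higher in 6F2 against aGP120 arthritic mice (2.02 ± 0.40, edgeR adjusted p = 0.0292), 1 of 6 tested. Over all 16674 genes tested, 265 were called higher there. No erythroid gene was called without aGP120 arthritic mouse 2, 3 or 4 or without 6F2 mouse 1, 2 or 3, and 4 were called without aGP120 arthritic mouse 1. Over all genes, fits without 1 library called 0 to 3976 genes with 6F2. In 6F2 mouse 3, these 3 sums were the highest of the group, as were S100a8, S100a9, Retnlg, Csf3r, Clec4d and Clec4e, but not Trem1 or Fpr1. The part of blood or marrow in the marker levels was not tested. Skeletal muscle genes, 11 in all, summed to 130000 to 259000 CPM in 6F2 mice and 195000 to 340000 CPM in naive mice. In aGP120 arthritic mice 1 to 4 they summed to 250000, 125000, 144000 and 192000 CPM. Joint tissue genes, 9 in all, summed to 10600 to 14600 CPM in 6F2 mice and 9180 to 14400 CPM in naive mice. In aGP120 arthritic mice 1 to 4 they summed to 8870, 27100, 18900 and 20500 CPM. The part of tissue make-up in the marker levels was not tested.

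Monocyte and macrophage genes, 15 in all, summed to 773 to 980 CPM in 6F2 mice, to 606, 1200, 1270 and 1230 CPM in aGP120 arthritic mice and to 636 to 674 CPM in naive mice. Mouse 1 of the aGP120 arthritic group was thus low here as in Clec4d, Clec4e, Trem1 and Csf3r. Of 14 tested, 9 rose in aGP120 arthritic against naive mice (median 0.95) and 0 passed with 6F2 (median -0.48). Of all genes tested, 5.87% were called higher in arthritis and 1.7% lower with 6F2. Without aGP120 arthritic mouse 1, 10 of the 14 were called lower with 6F2. Over all genes, fits without 1 library called 0 to 3976 genes with 6F2. The part of monocytes and macrophages in the levels of the lectin receptors and Trem1 was not tested. Activated epidermis genes, the skin program in which keratinocytes make calprotectin, summed to 8.17, 0.322, 12.9 and 279 CPM in 6F2 mice, 14.4 to 84.9 CPM in aGP120 arthritic mice and 0.613 to 249 CPM in naive mice. Within the 6F2 group, S100a8 (1.25 CPM) and S100a9 (3.23 CPM) were lowest in mouse 4, which had the highest sum. The part of keratinocytes in the S100a8 and S100a9 levels was not tested.

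**Figure D5:**
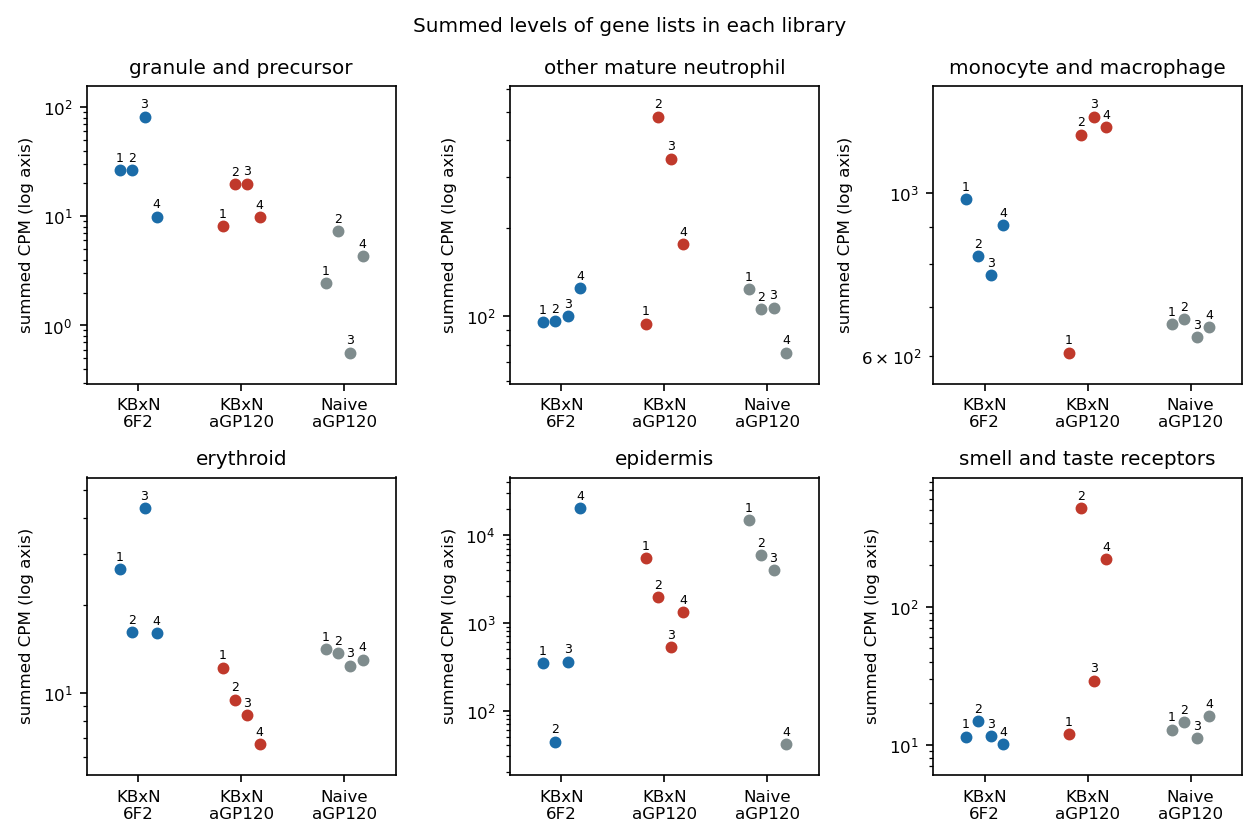
Summed TMM-scaled CPM of 6 gene lists on log axes, 1 numbered point per mouse in the KBxN 6F2, KBxN aGP120 and naive aGP120 groups. Granule and precursor genes and erythroid genes are highest in KBxN 6F2 mouse 3 (81.6 and 43.2 CPM), monocyte and macrophage genes are high in KBxN aGP120 mice 2, 3 and 4, and smell and taste receptors in KBxN aGP120 mice 2 and 4.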

How the data were processed

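The authors deposited raw read counts by gene for 12 paw joint libraries, prepared per the labels with a stranded kit for total RNA. The submitters' processing notes name the build GRCm38. The aligner, counter, strand setting and treatment of shared reads were not given in the sources used here. Thus counts of overlapping genes such as Fpr2 and Fpr3 are uncertain. All 12 sample files equalled the series table, and no libraries of the same group agreed within sampling noise (lowest chi-square per gene 8.95). Libraries of different groups were not compared in this way. Rows without a symbol held 0.0173% of counts.

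Genes were filtered with filterByExpr (16674 kept), scaled by TMM and tested with edgeR 4.0.16 in R 4.3.3, as a robust quasi-likelihood fit over all 12 libraries with Benjamini-Hochberg adjustment at 0.05. The common biological coefficient of variation was 0.334. The 5 markers below the filter were compared on log2(CPM + 0.5) by exact two-sided permutation. Floors are 3 counts per library, and intervals of counts are exact at 95%. The script was tested on simulated data. Positions and exon lengths come from GENCODE M21 (52489 identifiers found) and promoters from RefSeq, in which 9 of 9 markers matched.

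Genes named were the 9 markers, all genes of the ligand and adaptor lists, up to 4 of each other list by smallest p, and the 8 genes most like the markers' mean. The markers and lists were chosen with earlier results of these data known. Any other gene was named after its values were seen, and some genes that the rule selects are not reported here. Alternatives were other size factors, other filters, DESeq2 1.42.0, limma-voom (limma 3.58.1), fits of 2 groups, a fit without robust dispersion, the replicate number as a block, leaving out libraries and, added after seeing the data, pseudocounts of 0.1 and 2 CPM.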

Additional observations from a re-analysis of the deposited data

Results flagged for a closer look

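In 6 of 48 sets of 4 libraries, the highest or lowest mouse stood apart from the others of its group by a gap over Dixon's 95% limit. For normally distributed values chance alone gives about 1 in 20 groups, but many values here are counts near 0. A set with reads in 1 mouse alone is always flagged, and a set of equal values never is. The number flagged therefore cannot be compared with that rate. For the markers, the flagged sets were Clec4e in 6F2 mouse 3 (0.65 CPM, the highest of its group), Retnlg in aGP120 arthritic mouse 2 (2.36 CPM, the highest) and Fpr1 in naive mouse 4 (0.0766 CPM, which is 1 read). Among the lists, epidermal genes were highest in 6F2 mouse 4 (20300 CPM summed) and other mature neutrophil genes were highest in the same mouse (125 CPM summed). In that neutrophil list, Wfdc21 (18.3 CPM, at most 1.73 in other 6F2 mice) and Mxd1 (31.6 CPM, at most 18) stood out in mouse 4. The markers Csf3r, S100a8 and S100a9 were the lowest of the group in that mouse. Monocyte and macrophage genes were lowest in aGP120 arthritic mouse 1 (606 CPM summed), the mouse of its group in which Clec4d, Clec4e, Trem1 and Csf3r were lowest as well.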

How the results depend on the processing

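No direction of S100a8, S100a9, Csf3r or Clec4d reversed in any alternative, and 17 values of single markers lost their call while 2 gained one. Retnlg in 6F2 against aGP120 arthritic mice (-0.03) turned to 0.02 without the filter, 0.44 without aGP120 arthritic mouse 2, 0.18 without 6F2 mouse 2 and 0.21 without 6F2 mouse 4. In aGP120 arthritic against naive mice, where 2 markers and 1721 genes were called, 1 marker was called with limma-voom and 0 without both aGP120 arthritic mice 2 and 4. Genes called were 2905 with DESeq2, 435 with only these groups in the fit, 1 without aGP120 arthritic mice 2 and 4, and 166 without naive mouse 4 and 6F2 mouse 2. Leaving out single libraries gave 1 to 4 markers and 412 to 4694 genes. In 6F2 against aGP120 arthritic mice, where 1 marker and 548 genes were called, markers called were 3 without the filter (Clec4d, Clec4e and Trem1), 2 with DESeq2 (Clec4d and Csf3r), and 0 with limma-voom, with only these groups in the fit, without aGP120 arthritic mice 2 and 4, and without naive mouse 4 and 6F2 mouse 2. Genes called were 1892 with DESeq2 and 0 with only these groups in the fit and without either of these pairs of mice. Single libraries left out gave 0 to 4 markers and 0 to 3976 genes, and counts of 3 or 4 markers include Clec4e and Trem1, which, like Clec4d, passed the filter through their high mice. In 6F2 against naive mice, where no gene was called, 4 genes were called without the filter and 20 with DESeq2, and leaving out single libraries gave 0. With the replicate number as a block, 735, 78 and 0 genes were called in the 3 comparisons, and the calls of the markers stayed. Deviations of same-numbered mice from their group means correlated at -0.8 to 0.207, and the labels name no batch. These correlations cannot exclude that same-numbered mice share a batch. The cause of these changes was not tested. With Trem1 at 0 to 42 reads, Fpr1 at 8 at most and Fpr2 at 3, depth limits what can be detected.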
